A study of Mus musculus with 8 samples.

Results

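The 7 adrenergic receptor genes Adrb1, Adra1a, Adra1b, Adra1d, Adra2a, Adra2b and Adra2c were taken by gene name from the deposited table of counts, which lists 54532 genes. All 7 had a row, and all 7 were among the 17195 genes that passed the filter on low counts. Cortical RNA came from 4 PS19 mice and 4 Adrb1+/m;PS19 mice of the C57BL/6 strain, all 8 mo old, with 1 library per mouse. Both groups carried the PS19 transgene, a human 1N4R tau cDNA with the P301S mutation under the mouse prion protein promoter, and all mice were housed singly in a light-dark cycle. Adrb1+/m;PS19 mice also carried 1 knock-in copy of the Adrb1-A187V mutation, made with CRISPR/Cas9, beside 1 normal copy. Mice without the transgene and mice with the mutation alone were not analysed here. The comparison asks whether transcripts of the receptors for noradrenaline differ in the cortex of tauopathy mice when 1 of these receptors is mutated.

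Adrenergic receptors are G protein-coupled receptors for noradrenaline and adrenaline. In the cortex, noradrenaline is released from axons of the locus coeruleus, a brainstem nucleus that is active in waking and falls silent in rapid eye movement sleep. The α1 receptors couple to Gq and phospholipase C, the α2 receptors couple to Gi and also serve as autoreceptors on noradrenergic terminals, and the β1 receptor couples to Gs and raises cyclic AMP. The β2 and β3 receptors were not analysed here.

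Adrb1 encodes the β1 receptor and lies on chromosome 19 of GRCm38, from 56722372 to 56724862 on the plus strand. Its coding transcript in GENCODE M21 has 1 exon with 1398 coding bases. The stretch around the mutated codon is shown because it holds the designed difference between the 2 groups. It is the reference sequence at chr19:56722885-56722977, plus strand, with the mutated codon in capitals.

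Adrb1: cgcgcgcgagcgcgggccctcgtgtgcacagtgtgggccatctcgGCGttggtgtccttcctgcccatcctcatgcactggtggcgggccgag

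The capitals, GCG at 56722930 to 56722932, are an alanine codon, the residue that A187V replaces with valine. Counts per gene pool both alleles, so the values below do not separate mutant from normal Adrb1 transcripts. They also do not serve as a check of the genotype labels, since the mutation changes 1 codon and leaves the gene in place.

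Among the 7 receptors, Adra1d and Adrb1 had the most transcripts per length and Adra2b the fewest. Levels between genes were compared in TPM. Here counts are divided by the gene length in the deposited table and scaled to the same total in each mouse. Over the 8 mice, Adra1d had 57.2 ± 10.05 TPM (SD, n = 8), which placed it above 81.2% of the genes tested. Adrb1 had 52.0 ± 5.27 TPM (SD, n = 8), and the values of the 2 genes overlapped, with Adra1d above Adrb1 in 6 of 8 mice. Adra2c followed with 36.3 ± 6.24 TPM (SD, n = 8), below Adrb1 in all 8 mice. Adra1b had 21.7 ± 5.04 and Adra2a had 19.8 ± 3.16 TPM (SD, n = 8), and these neighbours did not differ beyond their spread, with Adra1b above in 5 of 8 mice. Adra1a had 7.07 ± 0.790 TPM (SD, n = 8), below Adra2a in every mouse. Adra2b had 0.937 ± 0.470 TPM (SD, n = 8), above 4.02% of the genes tested, and rested on 9 to 38 counts per mouse.

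**Figure D1:**
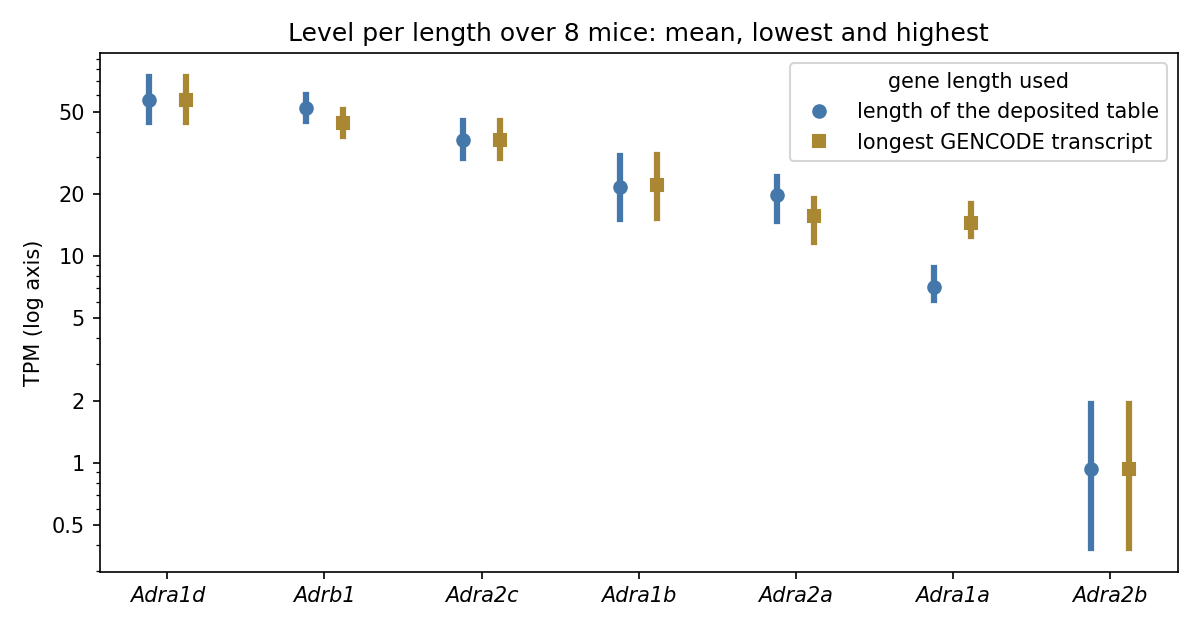
Level of each receptor gene in TPM on a log axis, with the mean of 8 mice as a point and the lowest to the highest mouse as a line, for the gene length in the deposited table and for the longest protein-coding GENCODE M21 transcript. By their means, Adra1d and Adrb1 lie highest and Adra2b lowest with either length. With the longest transcript the range of Adrb1 overlaps that of Adra2c, and Adra1a moves from 7.07 to 14.4 TPM. The counts are the same for both lengths, although the annotations differ in the extent of Adrb1 and Adra2a.

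The order of the means was the same with either gene length, but some gaps between neighbours were not. Adrb1 has 2491 bases in the deposited table and 2952 in its longest transcript, and Adra2a has 3801 and 4832. The annotations thus differ for these genes, while the counts were kept as deposited. For both, the longer length includes bases outside the gene as listed in the deposited table. The values that follow show only how far TPM depends on the length used. With 2952 bases, Adrb1 had 43.9 ± 4.45 TPM (SD, n = 8), and its range of 38.1 to 50.8 overlapped the 29.9 to 44.9 of Adra2c. The deposited table gives Adra1a a length of 8728 bases. GENCODE M21 lists 6 transcripts of this gene, and the longest protein-coding one has 4282. With that length, Adra1a reached 14.4 ± 1.61 TPM (SD, n = 8) and its range overlapped that of Adra2a, which had 15.6 ± 2.49. The counts of Adra1a were not limited to that transcript. Adra1d, in contrast, has a single annotated transcript of 1899 bases with 213 bases of untranslated sequence, whereas the untranslated parts of the other 6 transcripts span 1554 to 3437 bases. No sequence of 50 bases was shared between the annotated transcripts of any of the 7 genes, although the genes belong to 1 family. Adra1d alone overlapped another gene, Gm14285 on the opposite strand, which had 5 to 29 counts, or 1.21% to 4.93% of the Adra1d counts of the same mouse. The strand setting of the counting is not given in the sources used here, so reads of Adra1d and Gm14285 cannot be told apart in the overlap.

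Between genotypes, 2 of the 7 receptor genes had an unadjusted p-value under 0.05 in edgeR's quasi-likelihood test. The study selected genes at the same threshold, but on p-values from DESeq2. Adra1d was lower and Adra2b was higher in Adrb1+/m;PS19 vs. PS19 mice. Over all 17195 genes tested, 2.80% passed the same threshold, 1.42% higher and 1.37% lower in Adrb1+/m;PS19 mice. No gene passed after Benjamini-Hochberg adjustment with edgeR, and the adjusted p was 0.9996 for all 7 receptors. The DESeq2 and limma-voom tests also gave 2 receptor genes at the unadjusted threshold and none after adjustment. Of all genes tested, 555 of 33611 passed the unadjusted threshold in DESeq2 and 492 of 17195 in limma-voom. None of the 7 genes had values that separated the genotypes completely, against 2.02% of all genes tested. In cortex as a whole, fewer cells of a type and less RNA per cell cannot be told apart, which holds for every value below.

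**Figure D2:**
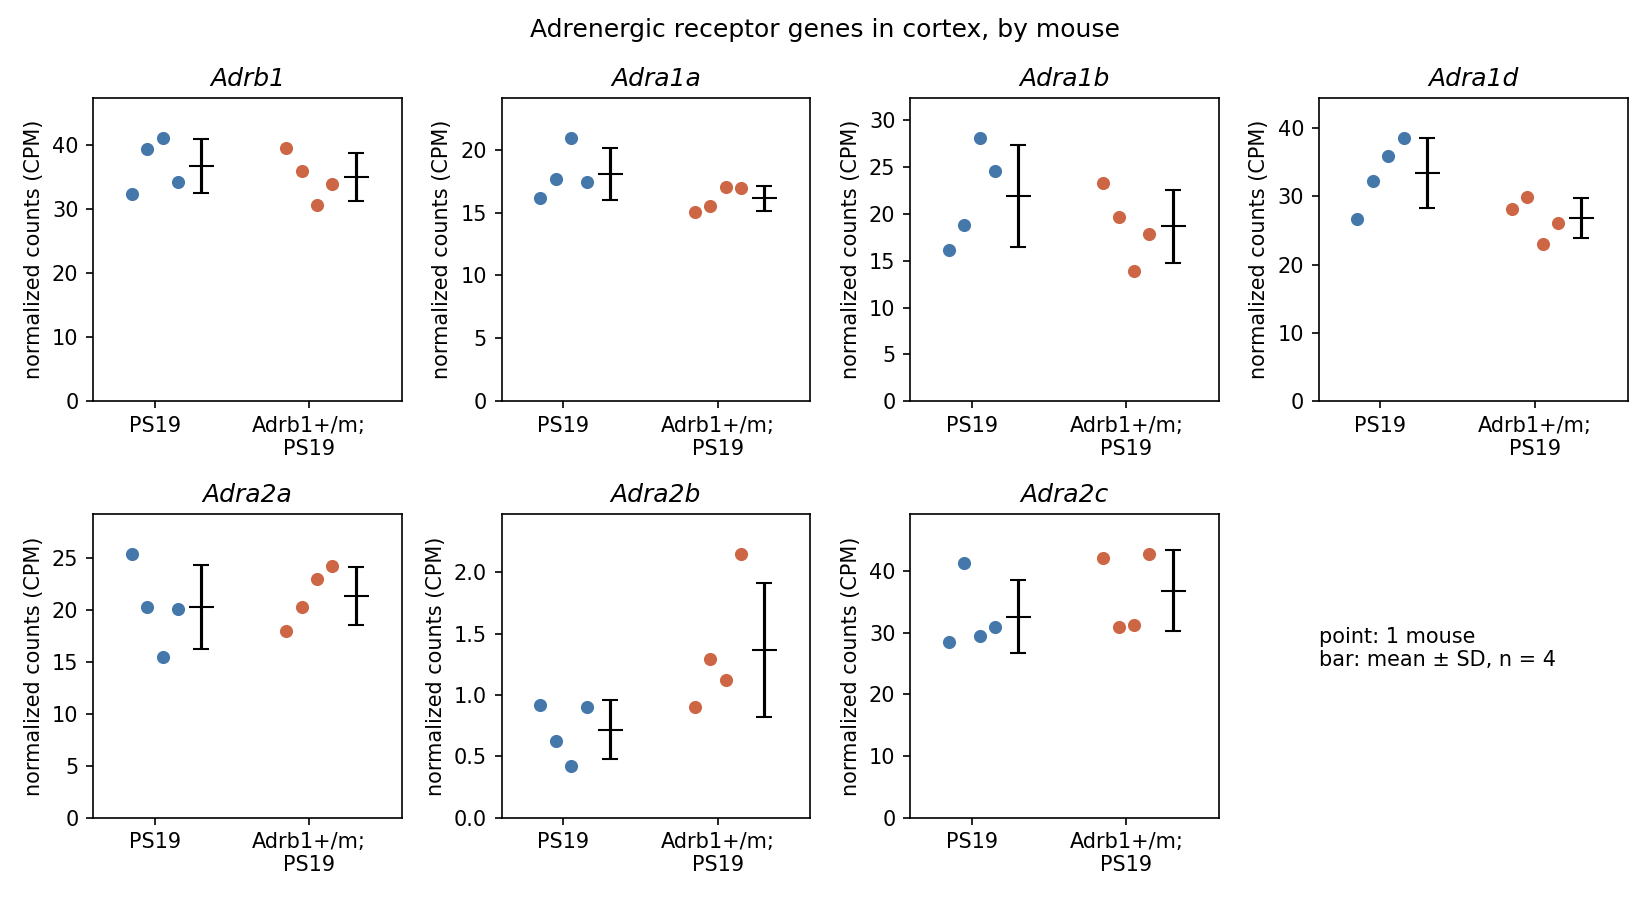
Normalized counts (CPM) of the 7 receptor genes in each mouse, 4 per genotype, with the mean and SD beside the points and axes that start at 0. Adra1d has 3 of 4 PS19 mice above all Adrb1+/m;PS19 mice, and Adra2b has 3 of 4 Adrb1+/m;PS19 mice above all PS19 mice.

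The mutated gene itself, Adrb1, did not pass the test. Values within a gene are given as CPM, counts scaled to the library size with TMM factors. Adrb1 had 32.3, 39.4, 41.2 and 34.2 CPM in PS19 mice m677, m668, m665 and m659, and 39.5, 36.0, 30.7 and 33.9 CPM in Adrb1+/m;PS19 mice m671, m661, m660 and m658. The genotypes overlapped over nearly their whole range, and the lowest and highest values of all 8 mice, in m660 and m665, were 1.34-fold apart. Adrb1 expression in Adrb1+/m;PS19 mice was 0.952 times that in PS19 mice, with a 95% interval of 0.827 to 1.09 (edgeR, unadjusted p = 0.458).

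All 3 α1 receptors had lower means in Adrb1+/m;PS19 mice, and Adra1d passed the unadjusted threshold. Over all genes tested, 49.8% had a log2 fold change below 0. Adra1d encodes the α1D receptor (chromosome 2, 131545850 to 131562283, minus strand, 2 exons). It had 26.7, 32.2, 35.8 and 38.5 CPM in PS19 mice m677, m668, m665 and m659, and 28.1, 29.9, 23.1 and 26.0 CPM in Adrb1+/m;PS19 mice m671, m661, m660 and m658. PS19 mouse m677 was the exception to the difference, lying below m671 and m661, while the other 3 PS19 mice lay above every Adrb1+/m;PS19 mouse. The fold change was 0.803 with a 95% interval of 0.681 to 0.947 (edgeR, unadjusted p = 0.0129), the 104th smallest p of all genes tested. The study drew Adra1d in its panel of genes chosen from these same mice, so its difference is not independent evidence. Without PS19 mouse m659 the log2 fold change was -0.24 with an unadjusted p of 0.0524 in edgeR, and it was -0.41 with an unadjusted p of 0.00118 without PS19 mouse m677.

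Adra1b encodes the α1B receptor (chromosome 11, 43774606 to 43901210, minus strand). Its values were 16.2, 18.8, 28.1 and 24.6 CPM in PS19 mice m677, m668, m665 and m659, and 23.3, 19.7, 13.9 and 17.8 CPM in Adrb1+/m;PS19 mice m671, m661, m660 and m658. PS19 mice m665 and m659 lay above the other 6 mice, while m677 lay below 3 of the 4 Adrb1+/m;PS19 mice. Expression in Adrb1+/m;PS19 mice was 0.848 times that in PS19 mice, with a 95% interval of 0.656 to 1.10 (edgeR, unadjusted p = 0.188). Adra1b passed the unadjusted threshold without mouse m677, with a log2 fold change of -0.36 (edgeR, unadjusted p = 0.0461), and with no filter on low counts (edgeR, unadjusted p = 0.0189). The log2 fold change moved the other way, to -0.09 without PS19 mouse m665 (edgeR, unadjusted p = 0.600) and to -0.12 without Adrb1+/m;PS19 mouse m660 (edgeR, unadjusted p = 0.481), from -0.24 with all mice.

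Adra1a encodes the α1A receptor (chromosome 14, 66635251 to 66771168, plus strand). It had 16.2, 17.7, 20.96 and 17.4 CPM in PS19 mice m677, m668, m665 and m659, and 15.1, 15.5, 17.0 and 16.9 CPM in Adrb1+/m;PS19 mice m671, m661, m660 and m658. As for the other α1 genes, m677 was the lowest of the PS19 mice, and it lay within the range of the Adrb1+/m;PS19 mice. The difference between genotypes was 0.891-fold with a 95% interval of 0.771 to 1.03 (edgeR, unadjusted p = 0.111). The log2 fold change was -0.17 with all mice and -0.08 without PS19 mouse m665 (edgeR, unadjusted p = 0.403).

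The α2 receptors had higher means in Adrb1+/m;PS19 mice, and Adra2b alone of the 3 passed the unadjusted threshold. Adra2b encodes the α2B receptor (chromosome 2, 127363208 to 127367221, plus strand, 1 exon). It was counted 15, 9, 9 and 15 times in PS19 mice m677, m668, m665 and m659, and 15, 27, 20 and 38 times in Adrb1+/m;PS19 mice m671, m661, m660 and m658. In CPM these were 0.919, 0.621, 0.425 and 0.903 against 0.900, 1.29, 1.12 and 2.15, so that m671 lay just under PS19 mice m677 and m659 and the other 3 Adrb1+/m;PS19 mice lay above every PS19 mouse. Expression was 1.92-fold higher in Adrb1+/m;PS19 mice with a 95% interval of 1.11 to 3.32 (edgeR, unadjusted p = 0.0228). Counting error alone gives a coefficient of variation of 23.2% at this depth. The unadjusted p in edgeR rose to 0.11 without Adrb1+/m;PS19 mouse m658, to 0.0765 without PS19 mouse m665 and to 0.0501 without PS19 mouse m668, with log2 fold changes of 0.64, 0.73 and 0.89.

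Adra2a encodes the α2A receptor (chromosome 19, 54045182 to 54048982, plus strand), the main α2 autoreceptor and a receptor of cortical neurons. It had 25.4, 20.3, 15.4 and 20.1 CPM in PS19 mice m677, m668, m665 and m659, and 17.9, 20.3, 23.0 and 24.3 CPM in Adrb1+/m;PS19 mice m671, m661, m660 and m658. The lowest and the highest of the 8 mice were both PS19 mice, m665 and m677, and the whole Adrb1+/m;PS19 range lay between them. The fold change was 1.06 with a 95% interval of 0.862 to 1.29 (edgeR, unadjusted p = 0.576), and its log2 value changed sign, to -0.038, without m665.

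Adra2c encodes the α2C receptor (chromosome 5, 35278319 to 35281763, plus strand), which in the forebrain is known for high expression in the striatum. It had 28.5, 41.3, 29.5 and 31.0 CPM in PS19 mice m677, m668, m665 and m659, and 42.2, 31.0, 31.2 and 42.8 CPM in Adrb1+/m;PS19 mice m671, m661, m660 and m658. The values formed a high level in m668, m671 and m658 and a low level in the other 5 mice, and both levels held mice of both genotypes. The fold change was 1.13 with a 95% interval of 0.928 to 1.38 (edgeR, unadjusted p = 0.203). The log2 fold change was 0.18 with all mice and 0.31 without PS19 mouse m668 (edgeR, unadjusted p = 0.022). It was 0.096 without Adrb1+/m;PS19 mouse m658 (edgeR, unadjusted p = 0.499) and 0.11 without m671 (edgeR, unadjusted p = 0.468). The same 3 mice also had the highest summed TPM of 12 striatal marker genes, with 2453 in m671, 2177 in m668 and 2092 in m658 against 1082 to 1673 in the other 5 mice. The part of the striatal marker difference in the Adra2c values was not tested.

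**Figure D3:**
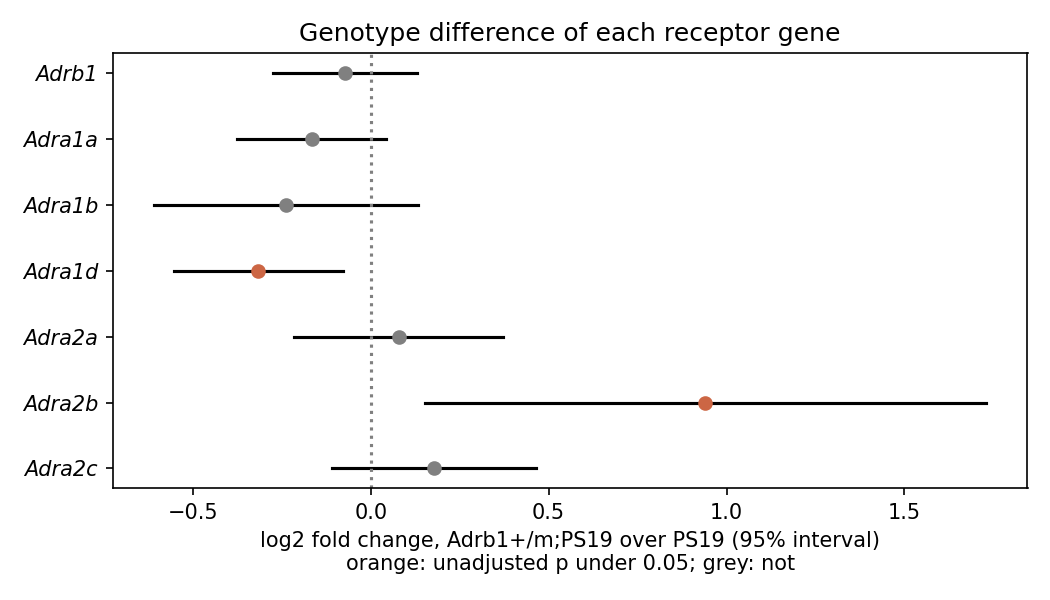
Log2 fold change of each receptor gene, Adrb1+/m;PS19 over PS19, as a point with its 95% interval from edgeR's quasi-likelihood fit of all genes. The intervals of Adra1d (-0.55 to -0.08) and Adra2b (0.15 to 1.73) do not reach 0, and those of the other 5 genes include it.

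Summed by class, none of the 3 receptor classes passed an exact permutation test between genotypes. The 3 α1 genes summed to 94.4 ± 16.2 TPM (SD, n = 4) for PS19 mice and 77.4 ± 8.07 TPM (SD, n = 4) for Adrb1+/m;PS19 mice. By mouse, the α1 sum was 74.6, 88.0, 107.8 and 107.4 TPM in m677, m668, m665 and m659, and 83.0, 84.3, 66.8 and 75.5 TPM in m671, m661, m660 and m658. The difference gave a p of 0.143 in a 2-sided exact permutation test (adjusted p = 0.429 over the 3 classes), where 4 mice against 4 allow no p below 0.0286. Without PS19 mouse m677 the ratio of the means went from 0.819 to 0.766 and the genotypes no longer overlapped, with an exact permutation p of 0.0286, the smallest that 3 mice against 4 allow. Without m665, m659 or m660 the ratio was 0.860, 0.859 or 0.857, each with an exact permutation p of 0.286.

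The α2 sum was 54.8, 62.6, 46.4 and 52.7 TPM in PS19 mice m677, m668, m665 and m659, and 61.0, 52.9, 56.4 and 69.9 TPM in Adrb1+/m;PS19 mice m671, m661, m660 and m658, with an exact permutation p of 0.286 (adjusted p = 0.429). The β1 level gave an exact permutation p of 0.514 (adjusted p = 0.514). The α1 genes held 46.6% ± 4.82 (SD, n = 4) of the summed receptor TPM in PS19 mice and 41.1% ± 2.52 (SD, n = 4) for Adrb1+/m;PS19 mice, the α2 genes 27.0% ± 4.46 and 32.0% ± 3.49, and Adrb1 26.4% ± 1.90 and 26.9% ± 1.24. The ratio of α1 to α2 transcripts was 2.32 and 2.04 in PS19 mice m665 and m659, above the other 6 mice, which lay between 1.08 and 1.59.

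**Figure D4:**
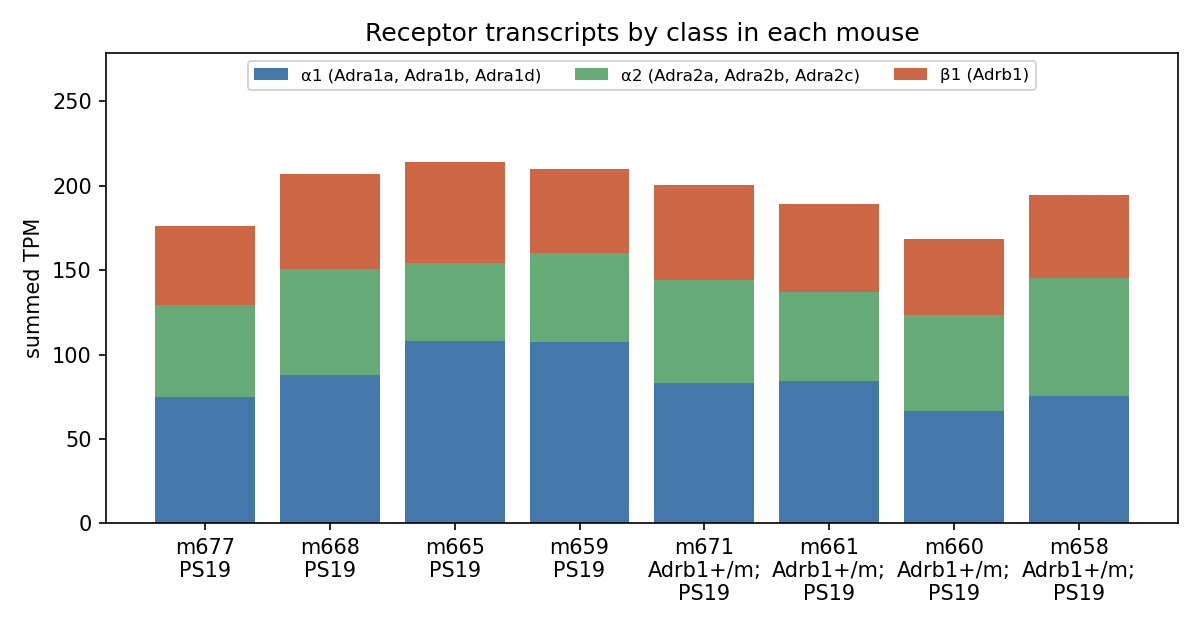
Summed TPM of the α1, α2 and β1 receptor genes in each of the 8 mice, stacked on an axis that starts at 0. The α1 part is largest in PS19 mice m665 and m659 (107.8 and 107.4 TPM) and smallest in Adrb1+/m;PS19 mouse m660 (66.8 TPM), and the genotypes overlap in every class.

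Within the α1 and α2 classes, the shares of single receptors overlapped between the genotypes. Adra1d made up 67.4% ± 2.45 (SD, n = 4) of the α1 transcripts in PS19 mice and 65.7% ± 1.86 (SD, n = 4) for Adrb1+/m;PS19 mice. Adra1b held 24.6% ± 2.47 and 25.5% ± 2.83. Adra2c made up 63.1% ± 6.39 (SD, n = 4) of the α2 transcripts in PS19 mice and 64.0% ± 5.31 (SD, n = 4) for Adrb1+/m;PS19 mice. Adra2b held 1.19% ± 0.388 and 2.02% ± 0.618 of the α2 transcripts.

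The genes varied to different degrees over the 8 mice. Adrb1 and Adra1a were the steadiest, with coefficients of variation of 10.5% and 10.6%, close to the median of 10.5% over all genes tested. Adra2a, Adra1d and Adra2c reached 15.8%, 17.4% and 17.9%. Adra1b reached 23.1%, where counting error alone gives 5.25%. Adra2b varied most, by 50.2%.

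**Figure D5:**
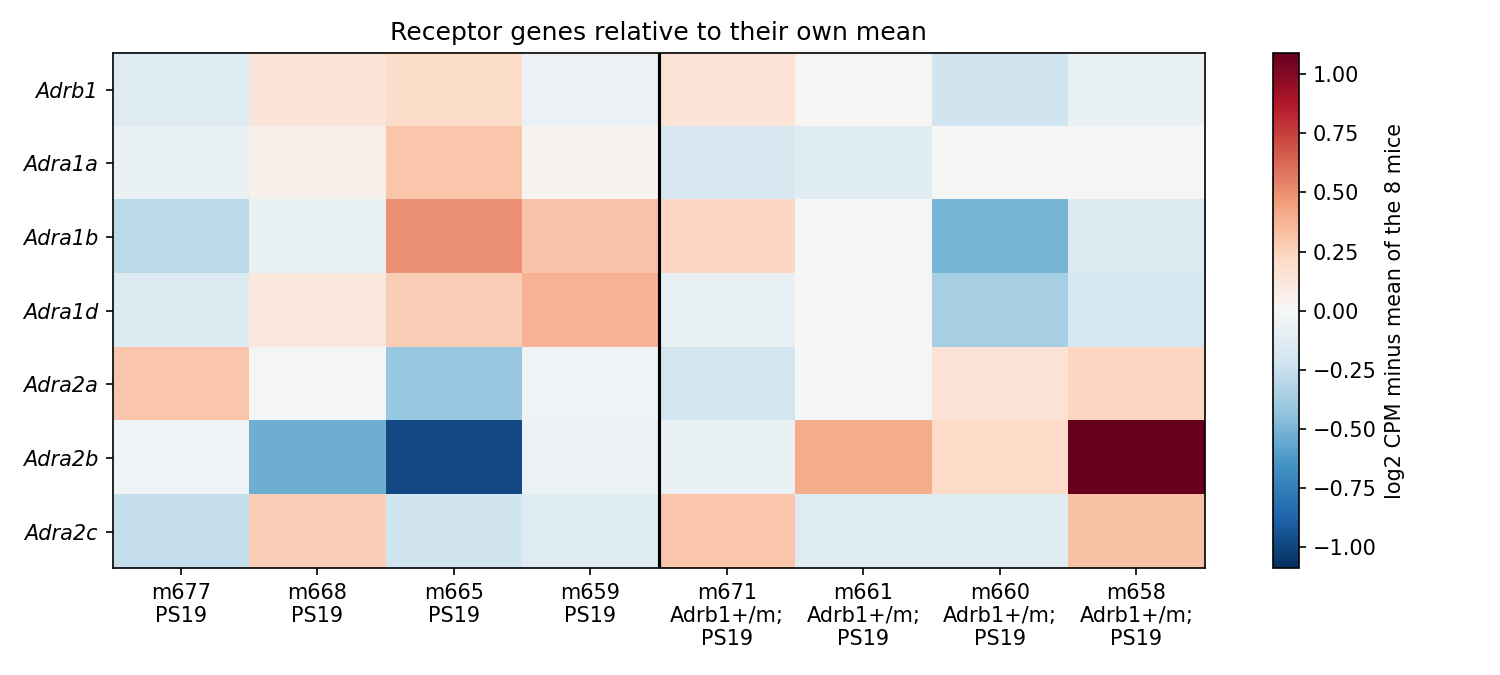
Log2 CPM of each receptor gene minus its mean over the 8 mice, with PS19 mice left of the line and Adrb1+/m;PS19 mice right of it. Mouse m665 is highest for Adra1a, Adra1b and Adrb1 and lowest for Adra2a and Adra2b, and mouse m660 is lowest for Adra1b, Adra1d and Adrb1.

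Single mice stood at the same end for several receptors. PS19 mouse m665, the library with the most counts, had the highest CPM of Adra1a, Adra1b and Adrb1 and the lowest of Adra2a and Adra2b. Adrb1+/m;PS19 mouse m660 had the lowest CPM of Adra1b, Adra1d and Adrb1. As a measure of likeness, the root mean square difference over the 8 mice between log2 CPM values centred on their means was 0.16 for Adra1a and Adrb1 and 0.17 for Adra1b and Adra1d, the closest of the 21 pairs of receptors. It was 0.79 for Adra1b and Adra2b, the most distant pair. Genes that vary little lie close to many others by this measure. The median over all other protein-coding genes tested was 0.18 for Adra1a, 0.19 for Adrb1, 0.34 for Adra1b and 0.26 for Adra1d. The value for Adra1a and Adrb1 was thus near that for any gene, and it does not show that these receptors vary together.

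By the same measure, the protein-coding genes most like each receptor over the 8 mice were found among 14487 others. For Adra1d these were Egr3, an activity-induced transcription factor, and Gfra2, a co-receptor for neurturin, at 0.06 and 0.11 against a median of 0.26 over all genes. Adrb1 was closest to Atf6 and Sema4a, at 0.04 and 0.05 against a median of 0.19. Adra1a was closest to Armc2 and Lifr (0.05 each), and Adra1b to Vkorc1 and Cbln2 (0.13 and 0.14). Adra2a was closest to Tor3a and Fibcd1 (0.07 and 0.08), Adra2b to Nts, the neurotensin precursor, and Slfn3 (0.22 and 0.26), and Adra2c to Krt9 and Lmo7 (0.05 and 0.08). With 8 mice and so many genes, close profiles arise readily, and the values describe these libraries only.

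Among 59 other genes of noradrenaline supply and receptor signaling, 53 passed the count filter and 4 had an unadjusted p-value under 0.05 in edgeR's quasi-likelihood test, or 7.55% against 2.80% of all genes tested. None passed after adjustment (edgeR adjusted p = 0.9996 for each of the 4). The number at the unadjusted threshold was 2 without PS19 mouse m659 and 6 without PS19 mouse m665. In those fits, 476 of 17546 and 607 of 17496 of all genes tested passed it. The median log2 fold change of the 53 genes was -0.003, and that of all genes tested was 0.0005.

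Of the 8 genes of noradrenaline synthesis, storage and reuptake, 3 were tested and none passed. Dbh, which makes noradrenaline from dopamine, had 0 to 6 counts per mouse, and Slc6a2, the noradrenaline transporter, had 0 to 1. Cell bodies that make noradrenaline lie in the brainstem and not in the cortex. Th and Ddc, which make dopamine upstream of Dbh, had 4.98 ± 2.27 and 5.30 ± 0.792 TPM in PS19 mice and 5.93 ± 1.11 and 5.15 ± 0.666 TPM in Adrb1+/m;PS19 mice (SD, n = 4). In the clearance of noradrenaline, Maob, a mitochondrial monoamine oxidase, was higher in Adrb1+/m;PS19 mice, with 31.6 ± 2.40 TPM in PS19 and 35.9 ± 2.03 TPM in Adrb1+/m;PS19 mice (SD, n = 4), a log2 fold change of 0.19 ± 0.08 (SE). Maoa, which encodes the other monoamine oxidase, did not pass the test.

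Downstream of the α1 receptors, none of the 12 tested genes of the Gq arm passed the threshold, among them Prkcb, a protein kinase C gene with a log2 fold change of -0.002 ± 0.06 (SE). Downstream of the α2 receptors, none of the 8 genes of the Gi arm passed, and Gnai1 and Gnao1, which encode Gi and Go α-subunits, had log2 fold changes of 0.01 ± 0.05 and 0.04 ± 0.04 (SE). For the β1 receptor, Gnas, which encodes the Gs α-subunit, had a log2 fold change of -0.01 ± 0.11 (SE). Gnal, which encodes Golf, the related α-subunit that is abundant in the striatum, was higher in Adrb1+/m;PS19 mice, by a log2 fold change of 0.26 ± 0.12 (SE). Gnas and Gnal together summed to 261.9 TPM in m658, 248.6 in m671 and 243.9 in PS19 mouse m668, against 177.5 to 222.3 in the other mice. Those with the highest sums were also the mice with the highest striatal marker sums. The part of the striatal marker difference in the Gnal values was not tested.

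Of the 9 genes that desensitize receptors, none passed, with log2 fold changes of -0.02 ± 0.10 (SE) for Rgs4 and -0.08 ± 0.06 (SE) for Grk2. Of 14 binding partners of the receptors, 1 was lower and 1 was higher, against 1.37% and 1.42% of all genes tested. Gipc1, a PDZ protein that binds the β1 receptor, was lower, with 121.7 ± 5.74 TPM in PS19 mice and 107.4 ± 4.91 TPM in Adrb1+/m;PS19 mice (SD, n = 4), a log2 fold change of -0.18 ± 0.06 (SE). Sntb1, a syntrophin of the family that binds the α1D receptor, was higher, with 2.11 ± 0.316 and 3.09 ± 0.713 TPM and a log2 fold change of 0.55 ± 0.20 (SE). Ppp1r9b (spinophilin), a partner of α2 receptors, and Ywhaz had log2 fold changes of -0.02 ± 0.06 and 0.04 ± 0.05 (SE). The values of Maob, Gnal, Gipc1 and Sntb1 overlapped between the genotypes.

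The libraries held 14653222 to 21223754 counts per mouse. The tissue carried the markers of cortex, with 1122 to 1393 summed TPM of 10 genes of cortical excitatory neurons, led by Slc17a7 and Rprm. These sums were 1218 to 1393 in PS19 mice and 1122 to 1225 in Adrb1+/m;PS19 mice, and 7 of the 10 genes had a log2 fold change below 0, with 3 lower and 1 higher at an unadjusted p under 0.05 in edgeR. Over all genes tested, 2.80% passed this threshold and 50.2% had a log2 fold change above 0. All 7 markers of basal forebrain cholinergic neurons had a log2 fold change above 0, 6 of them at an unadjusted p under 0.05 in edgeR, and their sums did not overlap, with 15.3 to 27.7 TPM in PS19 and 32.5 to 42.2 TPM in Adrb1+/m;PS19 mice. All 12 striatal markers had a log2 fold change above 0, 2 of them at an unadjusted p under 0.05, with overlapping sums of 1082 to 2177 and 1127 to 2453 TPM. For thalamic, hippocampal, astrocyte, microglia, oligodendrocyte and vascular mural cell markers none passed, and of 8 interneuron markers 1 was higher and 2 were lower at that threshold. No marker was at 0 in every mouse. The part of these marker differences in the α1 and α2 values, which overlapped between the genotypes, was not tested.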

How the data were processed

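Total RNA of the cortex of 8 mice was sequenced as paired-end reads, with 1 library per mouse. The authors aligned the reads to GRCm38 with HISAT2 2.0.5, counted them per Ensembl gene with featureCounts 1.5.0-p3 and deposited raw counts. Their own tests between genotypes used DESeq2 1.20.0. Gene lengths, a column of other values, are those of the deposited table.

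Tests were run in R 4.3.3. The filterByExpr function of edgeR 4.0.16 kept 17195 genes, TMM factors lay between 0.990 and 1.01, and the 2 genotypes entered a 2-sided quasi-likelihood test (glmQLFTest) without further terms. Adjusted p-values are Benjamini-Hochberg values over the 17195 genes. A standard error is the size of the log2 fold change divided by the square root of F. Log2 CPM used a prior count of 2. The method was also run on simulated counts, and the outcome is not reported here. Replicates differed by more than sampling noise (chi-square per degree of freedom of 4.83 to 9.94).

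The members and lists were chosen with earlier results of these data known. Named genes are the receptors, the pathway genes with an unadjusted p under 0.05, the 2 members of each list with the highest mean TPM, and the 2 genes closest in profile to each receptor. Most markers are given by counts and sums alone. Dbh, Slc6a2, Maoa and Gm14285 are named outside this rule, after their values were seen, and some genes that the rule names are not reported here.

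Alternatives were DESeq2 1.42.0, limma-voom (limma 3.58.1), DESeq2's size factors, no filter beyond 1 count, at least 10 counts in every mouse, 1 surrogate variable (sva 3.50.0) and each mouse left out. The longest transcript as gene length, with the counts unchanged, was added after seeing the data.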

Additional observations from a re-analysis of the deposited data

How the results depend on the processing

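No paired analysis was possible because no label ties a mouse of 1 genotype to a mouse of the other. The study states that its controls were littermates, but the labels give no litter, so the tests leave litter out. The number of receptor genes with an unadjusted p-value under 0.05 was 2 in the main analysis, 4 in edgeR with no filter beyond 1 count, where Adra1b and Adra2c joined, and 1 with at least 10 counts in every mouse, where Adra2b was not tested. Of all genes tested, 481 of 17195, 1366 of 33614 and 447 of 15643 passed in the same fits, in that order. Leaving out each mouse gave 1 to 3 receptor genes and 2 to 6 pathway genes, the 2 without PS19 mouse m659. Over all genes tested, the number in these fits ran from 431 of 17466 to 674 of 17450. The log2 fold change of Adra2a changed sign to -0.038 without PS19 mouse m665 and was 0.21 without PS19 mouse m677. In all 14 alternatives the 3 α1 genes had log2 fold changes below 0. These alternatives reuse the same mice and are not independent of each other. The log2 fold change of Adra1d ran from -0.41 to -0.24 over its alternatives, with edgeR, DESeq2 or limma adjusted p-values from 0.124 to nearly 1, and that of Adra2b from 0.64 to 1.09. The ratio of α1 sums lay between 0.766 and 0.860 with each mouse left out, the α2 ratio between 1.05 and 1.17, and the β1 ratio between 0.912 and 0.992. The cause of these changes was not tested. With no filter beyond 1 count, 66 genes passed after adjustment in edgeR, none of them a receptor, and 1 and 2 genes did so without Adrb1+/m;PS19 mice m661 and m658. With 9 to 38 counts per mouse, the counts leave the Adra2b value imprecise.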
